A study of Mus musculus with 8 samples.

Results

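The array carried 16194 probes that are named by a position in the mouse genome rather than by a gene, out of 55681 non-control probes in all. The scanner software's mark for signal well above background was present on 4 or more of the 8 arrays for 3825 of these coordinate probes. These 3825 were chosen by that mark, which is set from the measured intensity of each spot, and they are the probes described here. They belong to 1719 region strands, a region strand being one named interval read on one strand, in 1489 regions. Positions are on mm9 (NCBI37), per the file headers, and the suffix F or R of a name was read as the forward or reverse strand. The working name of the set is intergenic noncoding regions. Whether a region lies between genes, or holds a gene's exon or UTR, was not examined, because no annotation of mm9 was used here, and the regions are therefore called by position.

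The RNA came from the extensor digitorum longus (EDL), a fast hindlimb muscle, of male C57BL/6 mice. The 8 animals formed groups of 4. In the PCKO group the coactivators p300 and CBP were deleted in skeletal muscle by an inducible system, and the WT group was wild type. The treatment protocol describes deletion of both genes, whereas the genotype field names CBP alone, and the labels do not name the promoter that drives the deletion. Tamoxifen, the inducing drug, was gavaged for 5 days from 13 to 15 weeks of age in the PCKO mice, and muscles were taken the day after the last dose and a 4 h fast. The protocol gives the same text for the WT samples, so whether WT mice received the drug cannot be told from it. Whether other cells of the muscle kept both genes was not examined. A whole muscle holds several cell types, so fewer cells of a type and less RNA per cell cannot be told apart. Each mouse had its own array.

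Long intergenic noncoding RNAs (lincRNAs) are transcripts without a known protein product, and many were first located as genome intervals with marks of active transcription. Some act near their own site of transcription, some act elsewhere in the nucleus or cytoplasm, and others have no known role. p300 and CBP are acetyltransferases that are recruited to enhancers and promoters, where they acetylate histones and other proteins. Enhancers themselves are often transcribed into noncoding RNA.

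Levels are log2 processed intensities relative to the 75th percentile of the same array, so a level of 0 lies at that percentile. A difference is the mean PCKO level minus the mean WT level, with its standard error (SE). A probe is called higher or lower where the Benjamini-Hochberg adjusted p of limma's moderated test, adjusted over all 24872 tested probes of the array, is below 0.05. Brightness is used only to group, order and name probes, since probes differ in how strongly they bind, and no difference between the levels of 2 probes is read as a difference in transcript amount. For the largest rises and falls, counts over the probes of a region are of those detected on all 8 arrays.

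Both targeted transcripts were lower in PCKO muscle. Ep300, which encodes p300, read -1.66, -1.37, -1.54 and -1.66 in the PCKO mice and -0.33, -0.17, 0.08 and -0.13 in the WT mice. The groups did not overlap, and the difference was -1.42 ± 0.11 (adjusted p = 1.0e-05). Crebbp, which encodes CBP, read 3.49, 3.36, 3.49 and 3.35 in PCKO and 4.34, 4.08, 4.11 and 3.85 in WT. These groups did not overlap either, with a difference of -0.67 ± 0.11 (adjusted p = 7.7e-04). Relative to spike-in RNA this Crebbp difference was -0.02 (adjusted p = 0.96). The probes were not placed on the deleted exons, so they check the labels only in part.

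The whole array shifted between the groups. The 75th percentile lay -2.54 ± 0.34 (SD, n = 4) log2 units from the mean of 7 spike-in probes in PCKO and -3.20 ± 0.30 (SD, n = 4) in WT, a difference of 0.66 (p = 0.029 by a two-sided exact permutation test, which cannot give less here). Every difference given here is therefore 0.66 higher on the spike-in scale, and a fall smaller than that turns into a rise. The values behind this shift ran from -2.95 to -2.15 in PCKO and from -3.60 to -2.96 in WT, so the groups almost touched. The log2 spike-in mean itself was 9.69 on the array of PCKO replicate 4 and 10.22 to 10.66 on the other arrays. Markers of the muscle fibre were lower for 8 of 8 genes, with a summed level (relative to the 75th percentile, linear scale) of 961 to 1217 in PCKO and 3908 to 4897 in WT, so the label of the tissue held in both groups. Fibroblast markers were lower for 4 of 4 genes (174 to 238 against 328 to 416), endothelial markers for 3 of 3 (9.10 to 10.9 against 11.7 to 17.3), smooth muscle markers for 2 of 2 (10.4 to 16.9 against 20.6 to 26.6) and leukocyte markers for 2 of 2 (0.447 to 0.876 against 1.45 to 1.95). No neutrophil, adipocyte, Schwann cell or red blood cell marker was called on this scale, and of 2 tested satellite cell markers Calcr was lower and Pax7 was not called. On the spike-in scale 6 of 8 muscle fibre markers, 2 of 4 fibroblast markers, 0 endothelial, 0 smooth muscle and 1 leukocyte marker were called lower, 1 satellite cell marker was lower and 1 higher, and both neutrophil markers were higher. The part of these shifts in the regions' differences was not tested.

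The share of designed coordinate probes well above background did not differ between the groups beyond the spread of the mice. It was 25.8%, 24.2%, 22.7% and 24.8% in the PCKO mice and 22.8%, 25.1%, 23.0% and 22.8% in the WT mice. The means were 24.4% ± 1.32 and 23.4% ± 1.13 (SD, n = 4), 0.94 percentage points apart (exact permutation test, two-sided, p = 0.37). Probes for curated messenger RNAs, those with an NM_ accession, were detected far more often, at 62.1% ± 0.923 in PCKO and 61.6% ± 1.21 in WT. The gap between both kinds of probe differed by 0.43 percentage points between the groups (p = 0.26 by the same two-sided exact permutation test, with 0.029 the smallest possible).

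Among the 3825 coordinate probes, 2592 were well above background on all 8 arrays and 1233 on 4 to 7. The rule itself favours probes that are bright in a single group: 101 probes passed on all 4 PCKO arrays and on no WT array, and 153 on all 4 WT arrays and on no PCKO array. Such probes had to differ, and their calls are no evidence of change. At the edge of the rule, the 401 probes that passed on exactly 4 arrays had a median level of -3.90 and a median difference of -0.36. The 281 probes just outside it, with 3 arrays, had a median level of -4.17 and a median difference of -0.03.

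Coordinate probes moved in both directions in similar numbers. In PCKO muscle 1102 of 3825 (28.8%) were called higher and 1198 (31.3%) lower, and 1525 were not called. Over all tested probes 65.3% were called, 35.1% higher and 30.2% lower. The share of coordinate probes called higher thus lay below the background and the share called lower lay near it. Groups did not overlap for 1976 coordinate probes (51.7%), against 60.2% of all tested probes. Differences of at least 2-fold were called higher for 428 and lower for 555, where 11.8% and 13.3% of all tested probes were past that size. The median difference was -0.02, against 0.05 over all tested probes.

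These shares depend on how arrays are scaled. Of the called coordinate probes, 47.9% were higher, against 53.8% of all called probes. Centred on the spike-ins, 1874 were higher and 433 lower (81.2% higher, against 84.6% of all called probes), and with normexp background correction 405 were higher and 1607 lower (20.1%, against 46.6%). In these 3 scalings the coordinate probes held fewer rises per call than the whole array.

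Restricting the set to the 2592 probes detected on all 8 arrays left the shares nearly as they were, with 747 higher (28.8%), 810 lower (31.2%) and 1340 without overlap (51.7%). All probes detected on 8 arrays were called in 65.6% of cases, 35.7% higher and 29.9% lower, with 61.3% showing no overlap and with 9.7% and 11.2% past a 2-fold rise or fall. Of the coordinate probes in this stricter set 192 rose and 259 fell by at least 2-fold. Differences of 10-fold or more were falls in 36 cases and rises in 0. Among 14724 messenger RNA probes detected on all arrays, 174 fell and 22 rose to that extent.

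**Figure D1:**
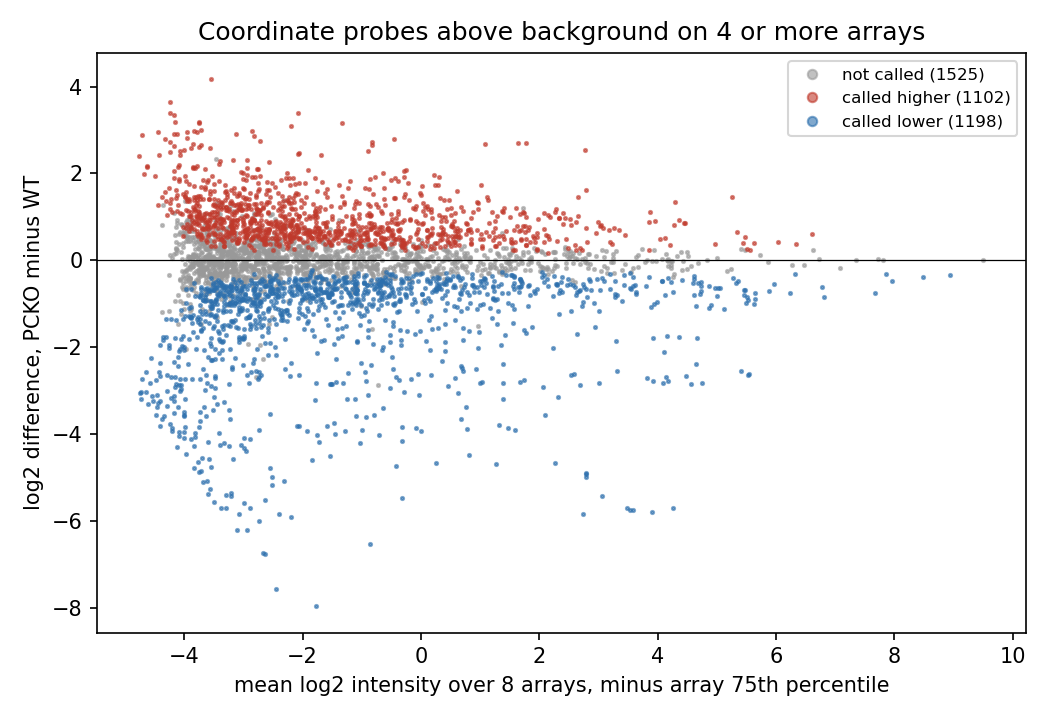
Difference between PCKO and WT (log2, vertical axis) against the mean level over the 8 arrays (log2 relative to the array 75th percentile, horizontal axis) for the 3825 coordinate probes, coloured by call. The 1102 higher and 1198 lower probes span the whole range of levels, the falls reach below -6 and the rises stay under 5. These extremes include probes above background on no array of one group, whose direction the rule had fixed. Among the named probes detected on all 8 arrays the differences ran from -5.83 to 3.16.

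Coordinate probes are dimmer than messenger RNA probes, so both were set side by side within 10 bins of brightness. Weighted to the brightness of the coordinate probes, 35.9% of messenger RNA probes were higher and 28.7% lower, with a median difference of 0.06. The median of the coordinate probes lay 0.08 below that of messenger RNA probes (member minus NM_ median of -0.08), and over every alternative the gap stayed between -0.14 and -0.06. The median SE was 0.17 for coordinate probes and 0.19 for messenger RNA probes in the same bins, so the precision was alike.

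The gap was widest in the brighter bins, where both shares differed. In the brightest bin 23.2% of coordinate probes were higher and 42.8% lower, against 37.1% and 32.3% of messenger RNA probes. In the next bin the shares were 31.7% higher and 37.2% lower for coordinate probes, against 46.8% and 27.4%. Dim bins were mixed. In bin 2 from the dim end they were 23.6% and 27.5%, against 30.0% and 27.3%, and in bin 4 they were 30.1% and 25.9%, against 29.9% and 27.8%. These are descriptions over probes that share mice and, in part, transcripts, and no test was made over them.

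**Figure D2:**
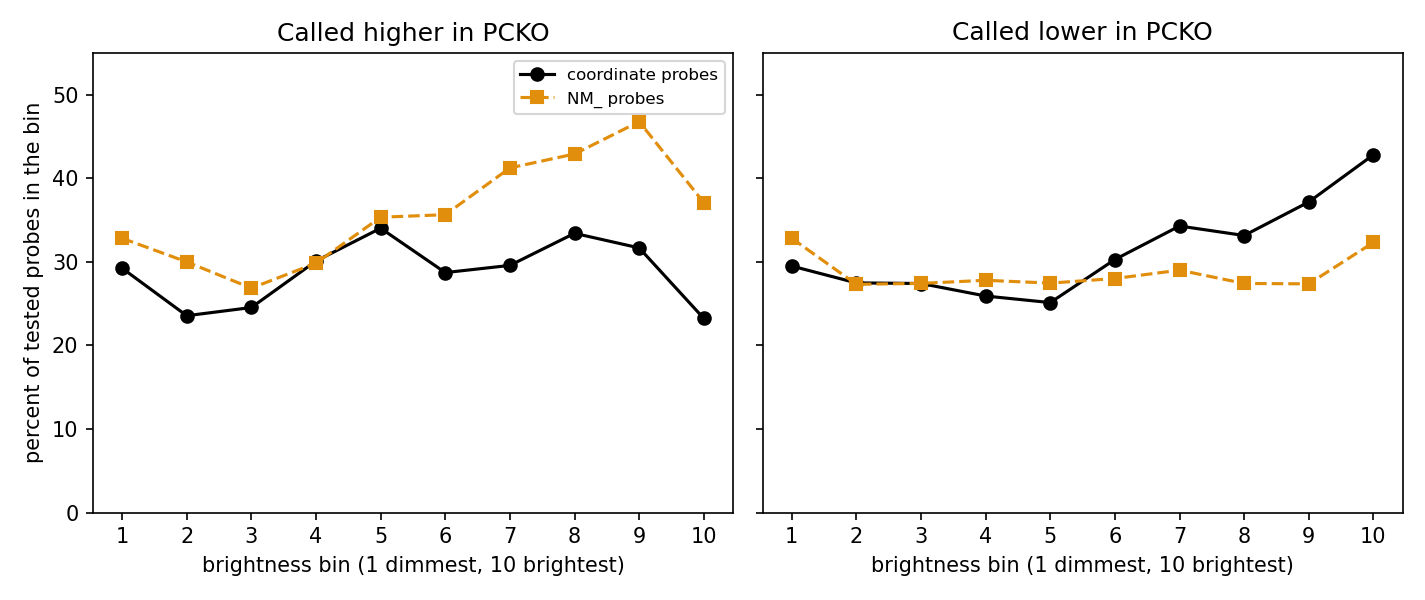
Percent of tested probes called higher (left) and lower (right) in PCKO muscle in each of 10 brightness bins, for coordinate probes (circles) and NM_ probes (squares). The lines for falls run close in bins 2 to 5 and part in the bright ones. In the brightest bin 42.8% of coordinate probes and 32.3% of NM_ probes were called lower.

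The largest rise among probes detected on all arrays belonged to a short region, chr4:149445201-149445902 on the forward strand (702 bp). Its levels were 0.09, 0.12, 0.03 and 0.72 in the PCKO mice and -2.91, -2.79, -3.10 and -2.87 in the WT mice. The groups were far apart, with a difference of 3.16 ± 0.16 (adjusted p = 8.2e-07), and all 3 probes of this region strand were higher, by 2.74 to 3.16.

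A second strong rise came from chr7:67111261-67120697 on the reverse strand. It read 3.27, 2.85, 3.27 and 3.13 in PCKO and 0.14, 0.47, 0.36 and 0.71 in WT, a difference of 2.71 ± 0.15 (adjusted p = 1.1e-06). The nearly coincident interval chr7:67111261-67120645 on the same strand read 2.99, 2.73, 3.05 and 3.21 against 0.22, 0.36, 0.16 and 0.42, again 2.71 higher (SE 0.12, adjusted p = 3.5e-07). All 3 probes at this locus that were detected on every array, all on the reverse strand, were higher by 2.67 to 2.71. These intervals overlap and are not independent observations.

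The third region was chr4:123361002-123364781 on the reverse strand, with levels of 0.77, 0.13, 0.46 and 0.64 in PCKO and -1.97, -2.28, -2.25 and -2.12 in WT. Its difference was 2.65 ± 0.15 (adjusted p = 1.3e-06), and both of its probes were higher. Next came chr13:21856097-21859200 on the reverse strand, at 3.99, 3.84, 4.10 and 4.26 in PCKO against 1.57, 1.52, 1.45 and 1.47 in WT. The WT mice lay within 0.12 of one another, and the difference was 2.55 ± 0.10 (adjusted p = 2.2e-07). This rise rests on the only probe designed for the region strand. The other detected probe at its locus differed by 0.78 and was not called.

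The remaining large rises were chr3:40439525-40509975 on the forward strand (2.45 ± 0.13), chr11:104304424-104329824 on the reverse strand (2.43 ± 0.13) and chr10:62267317-62269871 on the reverse strand (2.08 ± 0.11). In each the lowest PCKO mouse lay above the highest WT mouse, which the choice of these probes required. The chr11 value is that of the only probe there detected on all arrays. Of the other 4, 3 were above background on no WT array and are not counted. In the chr3 and chr10 regions 2 of 2 probes were higher, by 1.47 to 2.45 and by 1.90 to 2.08.

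Falls were larger than rises. The deepest among probes detected on all arrays was chr10:69669025-69686275 on the forward strand, a region of 17251 bp. It read -0.24, -0.23, 0.17 and -0.40 in the PCKO mice and 5.71, 5.88, 5.89 and 5.13 in the WT mice. The difference was -5.83 ± 0.19 (adjusted p = 9.3e-08), and all 5 probes of the region strand fell by similar amounts, from -5.83 to -5.41.

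A smaller interval nested within it, chr10:69679644-69682458 on the same strand, read 0.94, 1.14, 1.35 and 0.65 in PCKO and 6.79, 7.07, 7.04 and 6.31 in WT (difference -5.78 ± 0.20, adjusted p = 1.3e-07). At this locus 7 probes on the forward strand were detected on every array, and all 7 were lower, by -5.83 to -5.41. Both named intervals cover the same stretch, so they can report the same transcript.

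On chromosome 6, chr6:129151512-129208737 on the reverse strand read 0.02, 0.39, 0.33 and 0.47 in PCKO and 5.05, 5.37, 5.25 and 5.47 in WT. The difference was -4.98 ± 0.13 (adjusted p = 3.5e-08), and all 6 probes were lower, by -4.98 to -3.18. On chromosome 16, chr16:23992037-24001037 on the forward strand read -3.03, -2.83, -2.82 and -2.42 against 1.67, 2.75, 1.84 and 1.53. Its difference was -4.73 ± 0.26 (adjusted p = 1.3e-06), and all 5 probes were lower, by -4.73 to -3.58.

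For chr10:39666719-39679959 on the reverse strand the PCKO levels were -2.72, -2.68, -2.43 and -1.79 and the WT levels 1.69, 2.06, 1.76 and 1.48, a difference of -4.16 ± 0.22 (adjusted p = 9.7e-07). Both of its probes were lower. The region with a single detected probe of 5 designed, chr11:53592946-53637922 on the forward strand, read -2.58, -3.30, -2.65 and -3.67 against 2.79, 2.21, 2.48 and 2.15. That probe fell by 5.46 (SE 0.26, adjusted p = 6.0e-07). The other 8 detected probes at its locus were not called, so the fall rests on this probe.

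**Figure D3:**
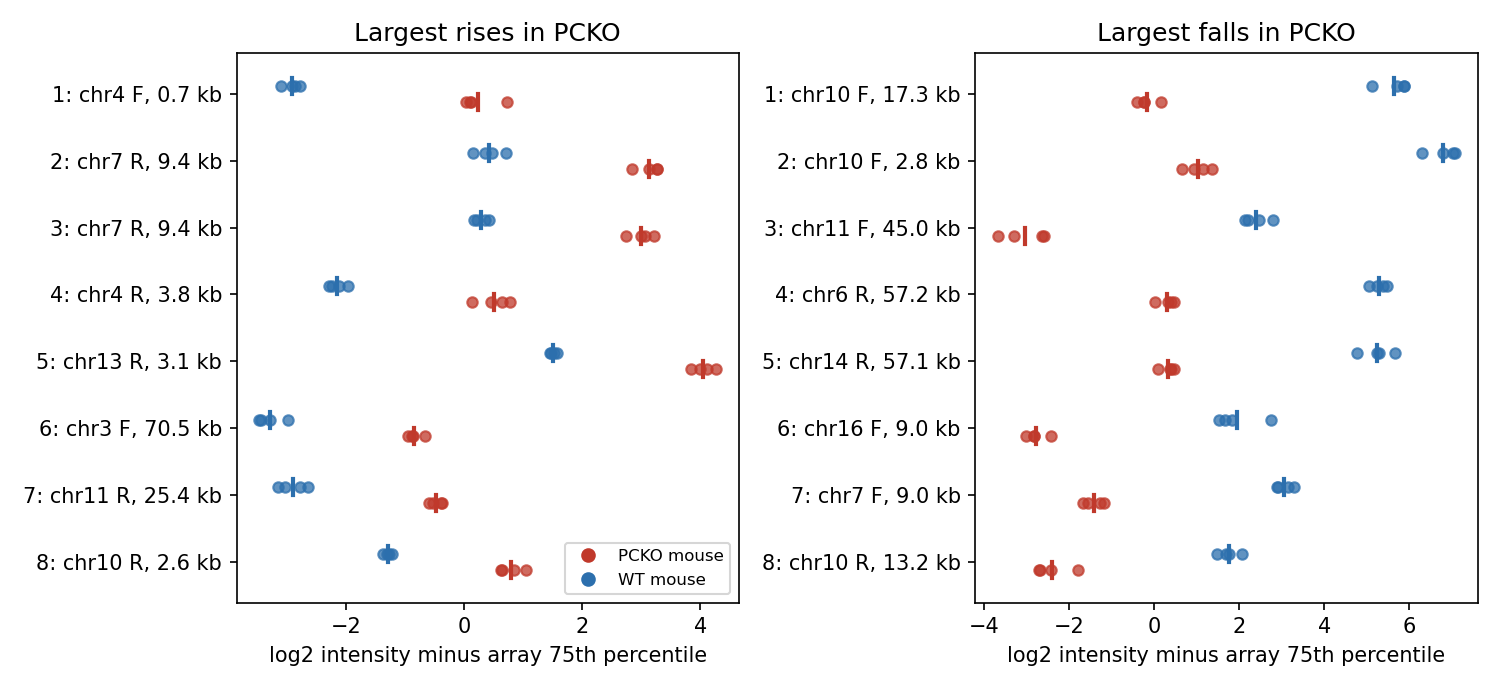
Levels of the 8 largest rises (left) and falls (right) among probes detected on all 8 arrays, as log2 intensity relative to the array 75th percentile, with 1 point per mouse and a vertical bar at each group mean. Labels give chromosome, strand and region length. In every region the 4 PCKO mice lie apart from the 4 WT mice, which the choice of these probes required.

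Several probes of one region strand did not always move together. Of 952 region strands with more than 1 detected probe, 190 had every probe higher, 212 every probe lower and 216 no probe called. In 303 some probes were called, all one way, and in 31 (3.26%) probes were called in opposite directions. The SD of the differences within a region strand had a median of 0.20. Of 2893 messenger RNA accessions with several tested probes, 893 had every probe higher, 623 every probe lower and 71 (2.45%) opposite calls, with a median SD of 0.14. Over probes detected on all arrays, opposite calls were seen in 21 of 650 region strands (3.23%) and in 66 of 2444 accessions (2.70%).

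One of these discordant regions was also among the largest falls. In chr14:77006215-77063293 on the reverse strand (57079 bp), a single probe read 0.09, 0.39, 0.47 and 0.36 in PCKO and 5.26, 4.78, 5.66 and 5.28 in WT, a fall of 4.92 (difference -4.92 ± 0.18, adjusted p = 1.4e-07). A second probe of the same region strand read 5.59, 5.57, 5.64 and 5.73 in PCKO and 5.34, 5.33, 5.40 and 5.42 in WT, which was higher by 0.26 ± 0.07 (adjusted p = 0.014). Of its 6 detected probes 1 was lower, 2 were higher and 3 were not called. The probes' places within the interval are not in the files, so a region of this size may be read at points far apart.

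The same held for chr9:20313342-20323517 on the reverse strand, where 1 probe was lower by -2.54 ± 0.15 (adjusted p = 1.5e-06) and 3 were higher, the most by 0.64 ± 0.14 (adjusted p = 0.0038). The opposite calls in chr9:88575075-88611650 and chr13:100286676-100296051 on the forward strand each rest on 1 probe that was above background on no array of one group, so the rule had fixed its direction and its difference is not given. In chr7:112934153-112943178 on the forward strand, 1 of 3 probes fell, with levels of -1.19, -1.66, -1.28 and -1.55 in PCKO and 2.90, 2.91, 3.30 and 3.14 in WT (difference -4.49 ± 0.14, adjusted p = 6.9e-08). The other differences there were -0.69 ± 0.33 and -0.38 ± 0.18, neither called.

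The region strands with most detected probes gave more even readings. All 10 probes of chr16:43623581-43642715 on the forward strand were lower, by -0.84 to -0.44. On the spike-in scale 6 of these differences were above 0 and none of the 10 was called. The smallest of the 10 lost its call without PCKO replicate 1 or 3 or WT replicate 1 or 2 (adjusted p = 0.067 to 0.080). In chr11:95627874-95640824 on the forward strand 9 of 10 probes were lower, by -1.04 to -0.54 over all of them. On the spike-in scale the smallest differences turned above 0 and none of the 10 was called. In chr17:26911397-26917047 on the forward strand all 10 differences lay between 0.09 and 0.25 and 3 were called higher. Each of these 3 lost its call without 1 or another mouse (PCKO replicates 1, 3 and 4 and WT replicates 1 and 4 for all 3, with adjusted p = 0.056 to 0.088). On the spike-in scale all 10 were called higher, by 0.74 to 0.91 (adjusted p = 0.0062 to 0.026).

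Some probes were bright in one group and not well above background on any array of the other, and their differences are bounds. A bound is the bright group's mean over a ceiling for the dim group, averaged over its arrays. The ceiling on an array is the dimmest signal that any probe well above background had there, or the dim probe's own signal where that is higher. Outside chromosome 18, 98 probes passed only in PCKO, with bounds of 1.27-fold to 5.89-fold and a median of 1.94-fold. In WT alone 145 passed, with bounds of 1.5-fold to 86.0-fold and a median of 3.65-fold. Bounds in both directions follow from the rule of the set, and none is counted as support.

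The highest bound was for chr8:126396600-126407275 on the reverse strand (10676 bp). Its WT levels were 2.29, 1.79, 2.66 and 2.09, and its PCKO levels of -6.53, -6.13, -5.89 and -4.43 were not well above background. It was at least 86.0-fold lower in PCKO. None of the 5 detected probes at this locus was above background on any PCKO array. The next bounds were at least 31.0-fold lower for chr6:37630192-37682692 on the forward strand and 29.4-fold for chr2:77152807-77155092 on the reverse strand, and 25.7-fold for chr6:86425510-86450160 on the reverse strand. In the last of these regions 1 of the 3 lower probes was well above background on every array and differed by only -0.42 ± 0.13 (adjusted p = 0.019), or 0.24 on the spike-in scale.

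In the other direction, chr10:84005221-84022896 on the reverse strand read -1.34, -2.42, -0.56 and -1.57 in PCKO, and its WT levels of -5.98, -5.29, -5.98 and -5.30 were not well above background. It was at least 5.89-fold higher in PCKO. Of the 3 detected probes of this region strand only the brightest was well above background on every array. That probe differed by 0.72 ± 0.40 (adjusted p = 0.14) and was not called. The other bounds were at least 5.11-fold higher for chr1:63319842-63349796 on the forward strand, 4.02-fold for chr8:72178035-72200445 on the forward strand and 3.60-fold for chr7:67111261-67120645 on the forward strand. The chr8 value includes 1 PCKO mouse at -0.79, with the others between -2.54 and -2.33. The chr7 region is the forward strand of the locus with the large rises above.

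Of the 6 brightest coordinate probes 4 were called lower, by -0.48 to -0.31, and 2 were not called. Over all tested probes 30.2% were called lower. Of the 4 lower probes, 3 belong to the same region strand, chr17:17481706-17482457 on the reverse strand, and are not independent. The brightest of all, in chr19:5801802-5802597 on the reverse strand, read 9.59, 9.36, 9.56 and 9.53 in PCKO and 9.86, 9.16, 9.54 and 9.46 in WT. The groups overlapped, and the difference was 0.01 (95% interval -0.33 to 0.34, adjusted p = 0.98). Another probe of this region strand was called higher (0.41, adjusted p = 0.043). Some bright probes were named because their difference lay within 0.2. For chr7:108209996-108216032 on the reverse strand the difference was 0.00 (95% interval -0.18 to 0.19), for chr11:22681800-22707775 on the reverse strand 0.04 (-0.14 to 0.22) and for chr1:193875525-193978800 on the reverse strand 0.02 (-0.22 to 0.26). None of these 3 was called on this scale, and the choice by a small difference makes them no evidence of stability. On the spike-in scale they and the chr19 probe were higher by 0.66 to 0.70, and all 4 were called (adjusted p = 0.034 to 0.045), in a setting where the spike-in error of an array is shared by all its probes. A second, dimmer probe of the chr1 region strand fell, with a difference of -1.60 ± 0.10 (adjusted p = 3.2e-06).

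The 3 probes of chr17:17481706-17482457 on the reverse strand, a region of 752 bp, were slightly lower. Its brightest probe read 8.89, 8.71, 8.74 and 8.73 in PCKO and 9.11, 9.10, 9.15 and 9.07 in WT, without overlap (difference -0.34 ± 0.07, adjusted p = 0.0038). The other probes differed by -0.39 ± 0.09 and -0.31 ± 0.08 (adjusted p = 0.0044 and 0.011). All 3 differences turned above 0 on the spike-in scale and after quantile normalization. In chr2:168804720-168854970 on the reverse strand the difference of -0.48 ± 0.11 (adjusted p = 0.0039) also turned above 0 on the spike-in scale.

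Of the 1067 regions designed on both strands, 230 had detected probes on both. With each strand taken by its brightest probe, 31 regions were higher on both strands and 42 lower on both. In 90 a single strand was called, in 44 neither, and in 23 the strands were called in opposite directions. The differences of both strands correlated at Pearson r = 0.53 and Spearman rho = 0.40 over the 230 regions, which share the same 8 arrays, and the median gap between strands was 0.53. Among the 136 regions detected on all 8 arrays with both probes, r was 0.31 and 15 regions were opposite. On the spike-in scale 7 of the 230 were opposite.

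The widest opposite pair was chr4:12050675-12066450 (15776 bp). Its forward strand read -1.40, -1.21, -0.93 and -1.45 in PCKO and -2.92, -3.11, -2.58 and -3.42 in WT, a rise of 1.76 ± 0.19 (adjusted p = 6.7e-05). Its reverse strand read -3.72, -3.55, -3.65 and -4.28 in PCKO and -1.69, -1.80, -1.91 and -1.63 in WT, a difference of -2.04 ± 0.16 (adjusted p = 1.0e-05). The groups were apart on each strand, in opposite order, and 4 of 4 detected forward probes were higher while 3 of 4 reverse probes were lower. Only 2 PCKO arrays detected this reverse probe.

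Another 3 pairs were opposite by wide margins. In chr2:31001736-31006911 the forward strand differed by -0.96 ± 0.18 and the reverse strand by 1.66 ± 0.27 (adjusted p = 0.0015 and 7.7e-04). However, the forward difference was -0.30 on the spike-in scale and was not called there (adjusted p = 0.37). This forward probe was well above background on 3 PCKO arrays and the reverse probe on 1 WT array. No probe of either strand there was detected on all 8 arrays. In chr7:50403100-50418175 the forward strand rose by 1.90 ± 0.17 and the reverse strand differed by -0.67 ± 0.13 (adjusted p = 1.9e-05 and 0.0023). In chr14:55671783-55680316 the forward strand differed by -1.43 ± 0.15 and the reverse strand by 0.99 ± 0.13 (adjusted p = 6.2e-05 and 1.7e-04). The chr7 fall was -0.01 on the spike-in scale. Each of the 3 falls rested on 1 detected probe, of 8 designed in the chr2 region and 5 in each of the others. The chr7 rise rested on the only probe designed for its strand.

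Among the brightest pairs none moved in opposite directions. In chr17:39960567-39992817 (32251 bp) both strands were lower, each with a difference of -0.59 ± 0.12 (adjusted p = 0.0023 and 0.0025), and 9 of 9 probes were called lower, but both differences were 0.07 on the spike-in scale. In chr11:95627874-95640824 the forward strand differed by -0.74 ± 0.13 and the reverse strand by -0.68 ± 0.12 (adjusted p = 0.0012 and 9.5e-04). On the spike-in scale these differences were -0.09 and -0.02, and neither was called there. In chr12:73838608-73862621 the reverse strand was lower (-0.70 ± 0.18, adjusted p = 0.0092) and the forward strand was not called (-0.31 ± 0.24), a difference between strands that was not tested. In chr7:108209996-108216032 neither strand was called.

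**Figure D4:**
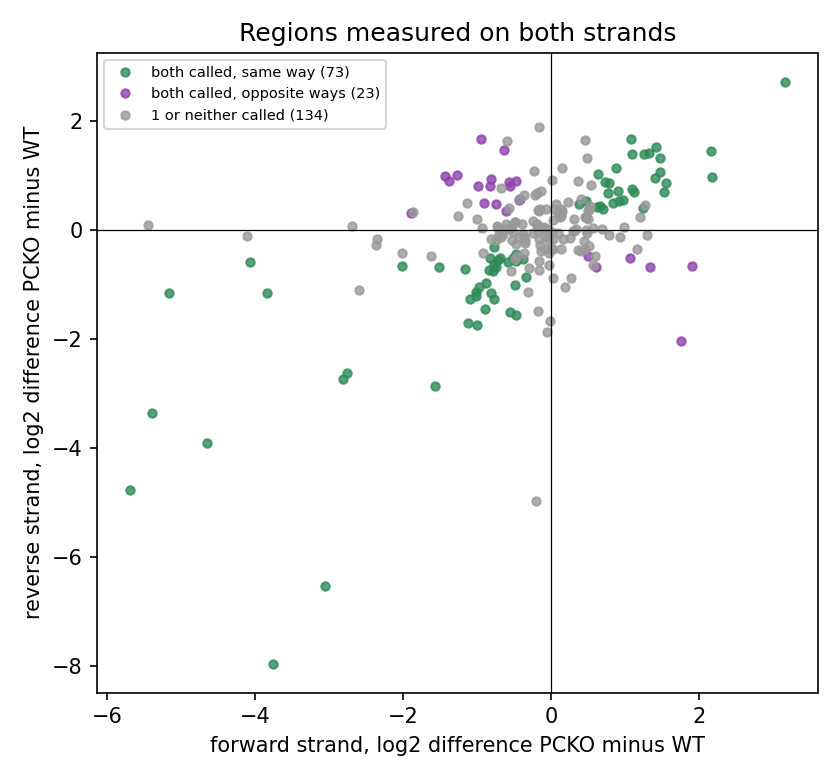
Difference between PCKO and WT (log2) of the reverse strand against that of the forward strand, with 1 point for each of the 230 regions detected on both. The 73 regions called the same way lie in the upper right and lower left quadrants, and some of the large falls lie far from the diagonal. The 23 called in opposite directions lie in the other quadrants.

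Over all detected probes the strands leaned differently. Of 1777 forward probes 487 were higher and 629 lower, with a median difference of -0.10, and of 2043 reverse probes 615 were higher and 564 lower, with a median of 0.05. Counted once per region strand by the brightest probe, 212 of 828 forward strands were higher and 293 lower, and 253 of 890 reverse strands were higher and 267 lower. The forward and reverse strand of the reference are labels of the assembly, and the lean was not tested. A further 5 detected probes carry no strand in their names, and all 5 were lower, with a median difference of -0.79. They share the same named region and are not independent, and the spike-in shift of 0.66 is close to that size.

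By chromosome, the set moved most on X. There 66 of 127 coordinate probes were higher (52.0%) and 20 lower (15.7%), with a median difference of 0.46, against 28.0% higher and 31.9% lower on the other chromosomes. Counted by region strand, 24 of 57 on X were higher and 11 lower. Messenger RNA probes on X leaned the same way, with 50.6% higher and 22.7% lower and a median of 0.35, against 38.2% and 30.2% elsewhere, so probes of both kinds leaned higher there.

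Coordinate probes on chromosome 7 had a median of 0.31, with 72 of 186 higher (38.7%) and 44 lower (23.7%). Messenger RNA probes there had a median of 0.08, with 39.1% higher and 30.0% lower, so the shares called higher were alike. Lower medians were seen on chromosomes 16 (-0.32), 3 (-0.30), 10 (-0.28) and 6 (-0.26), where messenger RNA probes had medians of 0.14, 0.07, 0.04 and 0.07. Neighbouring probes share transcripts, and these chromosome medians are not tests. Of the 63 lower calls on chromosome 16, at least 22 came from the locus chr16:43623175-43642715. Another 10 came from chr16:23992037-24001037, 4 of them from probes above background on no array of 1 group.

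**Figure D5:**
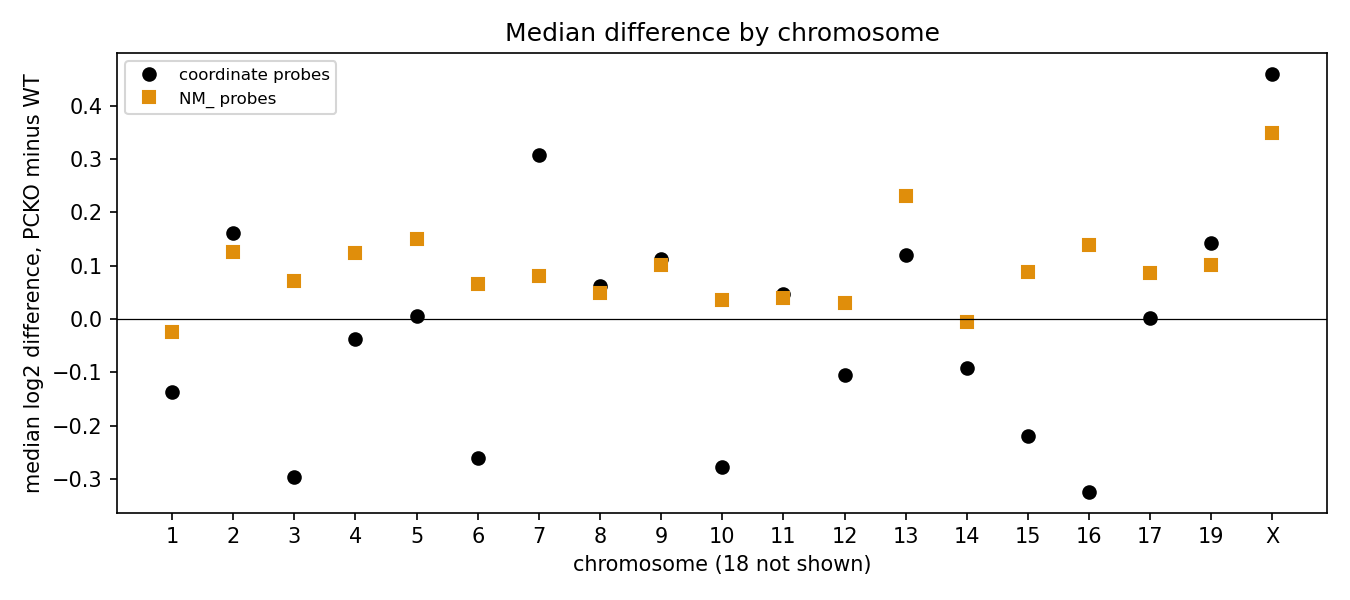
Median difference between PCKO and WT (log2) of coordinate probes (circles) and NM_ probes (squares) on each chromosome except 18. Both medians are highest on X, at 0.46 and 0.35, and the coordinate probes spread more widely over the other chromosomes, from -0.32 to 0.31.

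Shares called lower were alike over region length. Split by length into 4 classes, up to 3329 bp, 12126 bp and 29152 bp and beyond, 29.3%, 33.0%, 29.4% and 23.3% of probes were higher and 32.4%, 28.5%, 32.1% and 32.7% lower. The longest class held fewest rises.

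Many regions lie close together. Joined where they overlapped or lay within 50 kb, the 1719 region strands formed 928 loci, of which 489 held a single region strand. Of the 664 loci with more than 1 detected probe, 180 had every probe called in the same direction and 90 had probes called in opposite directions. Over probes detected on all arrays, 153 of 497 loci had every probe called one way and 56 had opposite calls. The locus with most region strands was chr6:31007184-31293337 (286154 bp), with 10 region strands and 27 detected probes. There 19 probes were lower and 0 higher, with a median difference of -0.69. Of the 21 detected on all arrays 14 were lower.

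Its strongest member, chr6:31170350-31287353 on the forward strand, read 0.88, 0.72, 0.89 and 0.50 in PCKO and 3.93, 3.86, 3.99 and 3.73 in WT, a difference of -3.13 ± 0.11 (adjusted p = 1.3e-07). All 3 of its probes were lower, whereas none of the 3 probes of chr6:31007184-31007725 on the reverse strand at the edge of the locus was called.

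At chr13:94180737-94203935, with 9 region strands and 22 probes, 7 were higher and 3 lower. The 3 lower probes were those of chr13:94180737-94182912 on the forward strand, the lowest of which read -0.09, 0.04, -0.02 and -0.19 in PCKO and 1.59, 1.49, 1.56 and 1.27 in WT (difference -1.54 ± 0.10, adjusted p = 3.0e-06). The 3 probes of chr13:94182877-94203852 on the reverse strand that were detected on all arrays were higher, by 0.98 to 1.14. Another, above background on 2 WT arrays, differed by 1.21 ± 0.29 (adjusted p = 0.0056), and by -0.07 after normexp background correction.

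At chr8:19678750-20038750, with 9 region strands and 20 probes, 9 probes were higher and 0 lower, with a median of 0.40. Its largest difference, in chr8:19959345-20020379 on the reverse strand, was 0.93 ± 0.34 (adjusted p = 0.038). It rested in part on 1 WT mouse at -4.43 where the others lay between -2.98 and -2.83. The call was lost without any 1 of the PCKO mice (adjusted p = 0.057 to 0.086), and the value after normexp correction was -0.09. At chr11:95561419-95658549, with 7 region strands and 28 probes, 22 were lower and 1 higher, with a median of -0.67, about the size of the spike-in shift.

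Noncoding RNA genes that the array names by accession were listed beside the regions. Of 66 listed genes 24 had a tested probe and are noncoding in the RefSeq table used, and 14 of these were higher and 5 lower in PCKO, with a median difference of 0.49, where 35.1% and 30.2% of all tested probes were called. The whole class of 310 tested probes with a noncoding (NR_) accession was closer to that background, with 38.7% higher, 28.1% lower and a median of 0.08. Snhg12, a host of small nucleolar RNAs, read 3.15, 3.01, 3.15 and 2.98 in PCKO and 1.20, 0.98, 1.64 and 0.46 in WT. The groups did not overlap and the difference was 2.0 ± 0.22 (adjusted p = 7.3e-05).

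Of 7 tested Snhg genes 5 were higher, among them Snhg7 (1.78 ± 0.13) and Snhg1 (0.96 ± 0.14), Snhg16 was not called (0.22, adjusted p = 0.085) and Snhg17 was lower. Also higher were the nuclear RNAs Malat1 (1.19 ± 0.19) and Neat1 (0.68 ± 0.09), the last of which is the scaffold of paraspeckles. Each was read by 1 accession probe, and whether a coordinate region covers either gene was not examined. Ftx, a noncoding gene of the X-inactivation centre, was higher by 1.35 ± 0.17. Snhg17 was lower, at -2.94, -2.58, -2.79 and -3.49 in PCKO against -1.07, -1.34, -1.02 and -1.23 in WT (difference -1.78 ± 0.19, adjusted p = 5.5e-05). Meg3, a maternally expressed imprinted RNA, differed by -1.22 ± 0.18 and Airn, an imprinted antisense RNA, by -0.73 ± 0.13 (adjusted p = 3.6e-04 for Meg3). On the spike-in scale only Snhg17 of the 5 stayed called lower. The list was put together with earlier results of these data known and is a description.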

How the data were processed

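Per the file headers, the authors' deposited scanner files hold spot intensity values made with Feature Extraction 10.7.3.1, background-subtracted within each array and not normalized between arrays. Each log2 intensity was then scaled by subtracting the 75th percentile of its array, taken over non-control probes. The deposited series table holds log2 values of 2215 of the coordinate probes. Their making is not described, so they served as an alternative. Control and outlier spots were left out, which left 19 detected coordinate probes with 1 missing value each.

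All 24872 probes well above background on at least 4 arrays were fitted with limma 3.58.1 in R 4.3.3 (group as the only term, 4 mice per group on 1 slide), with Benjamini-Hochberg adjustment over all of them. It was first tested on simulated data with known changes. Shares per array were compared by exact permutation (scipy 1.17.1). The number of arrays limits the precision. No spot was saturated.

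Named regions were the 8 largest called rises and falls without overlap on all 8 arrays, the 6 brightest probes, 4 bounds per direction, 4 bright and 4 opposite strand pairs, the 3 region strands with most probes, 4 bright probes with differences within 0.2, the 4 fullest loci with their extreme probes, and the 4 region strands with the widest opposite calls. Regions on chromosome 18 were counted and not named. The members, lists and rules were chosen with earlier results of these data known. Gene names came from RefSeq (GRCm38.p6) by accession. No coordinate probe matched a gene symbol, and no sequence was used here.

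Alternatives were quantile normalization, centring on the median or on 7 spike-ins, normexp with an offset of 50, other filters, array weights, an intensity trend, the deposited values, replicate number or slide row as a block, each slide row alone, and leaving out each mouse. Counts within regions and loci over probes detected on all 8 arrays were added after seeing the data.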

Additional observations from a re-analysis of the deposited data

Results flagged for a closer look

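In 172 groups of 4 mice, 9 held a mouse that stood apart from the other 3 by Dixon's test at the 95% level, where chance alone gives about 1 in 20. At chr4:149445201-149445902 on the forward strand PCKO replicate 4 read 0.72 (log2 level), with the others from 0.03 to 0.12. At chr17:17481706-17482457 on the reverse strand PCKO replicate 1 read 8.45, with the others from 8.21 to 8.24. At chr7:108209996-108216032 on the reverse strand WT replicate 2 read 7.76, with the others between 7.82 and 7.82. At chr8:72178035-72200445 on the forward strand PCKO replicate 4 read -0.79, with the others from -2.54 to -2.33.

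For chr7:50403100-50418175 on the reverse strand WT replicate 2 read -0.97, with the others from -0.52 to -0.46. For chr16:43623581-43642715 on the forward strand WT replicate 2 read 3.12 with 1 probe, with the others from 2.84 to 2.87. For chr17:26911397-26917047 on the forward strand PCKO replicate 3 read 1.62 with 1 probe, with the others from 1.55 to 1.56. For chr8:19959345-20020379 on the reverse strand WT replicate 4 read -4.43, with the others from -2.98 to -2.83. WT replicate 2 also had 25.1% of the designed coordinate probes well above background, with the other WT mice from 22.8% to 23.0%.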

How the results depend on the processing

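Counts of coordinate probes changed by over 1.5 times with 5 settings. Centred on spike-ins, 1874 were higher and 433 lower (median difference 0.63). The deposited values, which list 2215 of the probes, gave 557 and 654. With normexp 405 were higher (median -0.28). Within slide row 1 alone 690 were higher and within row 2 alone 711, from 2 mice per group. With a replicate block 1076 were higher and 1206 lower. Same-numbered mice correlated at 0.03 to 0.15, so the numbers were not taken as pairs. Leaving out 1 mouse gave 971 to 1077 higher and 1111 to 1169 lower, with medians of -0.036 to -0.0011. The cause of these shifts was not tested.

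The noncoding genes were higher for 7 with the deposited values and 8 in slide row 1. They were lower for 1 with spike-ins, 2 with the deposited values and 3 in each row. Their median was 1.15 with spike-ins. The deposited values hold 14601 of the 24872 tested probes, so a gene without a value there could not be called. Each slide row has 2 mice per group. Crebbp was at -0.018 with spike-ins. Regions with opposite strands numbered 7 with spike-ins and 15 when detected on all 8 arrays. The share of probes detected by the scanner's positive-and-significant mark was 1.90 points lower in PCKO (difference -1.90, p = 0.31 by exact permutation, two-sided). Keeping outlier spots was not run for that share, which counts every spot.

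On the spike-in scale the called falls turned to 0.32, 0.27 and 0.35 at chr17:17481706-17482457 on the reverse strand, 0.18 at chr2:168804720-168854970 on the reverse strand, and 0.068 and 0.071 on the strands of chr17:39960567-39992817. They turned to 0.037, 0.12, 0.044, 0.098, 0.21 and 0.015 for 6 probes of chr16:43623581-43642715 and to 0.10 and 0.12 for 2 probes of chr11:95627874-95640824, both on the forward strand. The deposited values gave 0.34 and 0.22 for 2 probes at chr17:17481706-17482457 and 0.012 at chr2:168804720-168854970. Quantile normalization gave 0.30, 0.12 and 0.14 at the former. With normexp the rises at chr13:94182877-94203852 and chr8:19959345-20020379 on the reverse strand turned to -0.068 and -0.090. Of the other values compared for single named probes, 1623 kept their direction and call, 101 lost the call and 34 gained one. Intensities near background limit the dim probes.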
